A study of Drosophila melanogaster with 6 samples.

Results

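Aminoacyl-tRNA synthetases are the enzymes that join each amino acid to its transfer RNA. The 35 genes described here, of 13189 genes with a transcript count, are those whose symbol is an amino acid code followed by RS, with the suffix -m for the enzyme imported into mitochondria. There were 20 cytosolic and 15 mitochondrial genes, and all 35 had the same start and end in the Ensembl BDGP6 annotation, which uses dm6 coordinates. The tissue was the midgut of Drosophila melanogaster, and the cells were its progenitors, meaning the stem cells and their undifferentiated daughters, in 6 libraries. The control group was 3 libraries of wild-type genotype and the other group was 3 libraries labelled Pex5-depleted. In both groups the cells were sorted for GFP, with the gate set on esg-driven GFP flies, and each replicate pooled about 40000 cells from 200 guts. The labels used here give neither the means of depletion nor the sex and age of the flies. Pex5 encodes the receptor that brings enzymes into peroxisomes, and the comparison asks which progenitor transcripts differ when it is depleted.

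Each amino acid needs a charging enzyme in the cytosol, where most proteins are made, and another for the few respiratory chain proteins translated inside mitochondria. The mitochondrial enzymes are encoded in the nucleus and imported, and some genes make both forms from one locus. In mammals, several cytosolic synthetases are held in a multi-synthetase complex by scaffold proteins that have fly counterparts named AIMP. Uncharged transfer RNA activates the kinase GCN2 and through it the transcription factor ATF4 (crc in flies), which in mammals raises many synthetase genes.

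Depth was 2573882 to 4793433 unique molecular identifiers (UMIs, captured molecules counted once each) per library, with 8890 to 10349 genes detected. The 3 UMIs that a count of 0 allows in 1 library are 0.626 to 1.17 CPM (UMIs scaled to a common library total), for counting error only. This range uses the raw total of each library, whereas CPM values below use adjusted totals unless stated, so the scales differ slightly. The Pex5 transcript itself was counted 8, 6 and 14 times in the controls against 2, 21 and 41 times in the other group. Its log2 fold change was 1.24 (SE 0.87), against the label, with an edgeR quasi-likelihood adjusted p of 0.607. The group is therefore called by its label, and each direction below rests on that label. Of 10 progenitor markers 10 were tested and 0 passed, where 1.65% of all tested genes did, and esg stood at 42.7 and 55.6 CPM in the 2 groups. The marker mira stood at 14.3 ± 7.79 and 45.6 ± 18.4 CPM (SD, n = 3 each), with an adjusted p of 0.0788 by edgeR. It passed with DESeq2 (0.00724), without a count filter (edgeR, 0.00138) and in 1 of the 6 edgeR fits that left out 1 library (0.0473). Snap25 stood at 55.4 and 32.0 CPM (edgeR adjusted p = 0.268). In pooled cells, fewer cells of a type and less RNA per cell cannot be told apart.

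None of the synthetase genes passed the test between the groups. The transcripts with the smallest p, of the mitochondrial enzymes for phenylalanine, methionine and tryptophan, stood 2.44 to 4.83 times higher in the libraries labelled Pex5-depleted. Of the 11 tested mitochondrial genes 4 were lower there, down to 0.623 times for TyrRS-m. Of the 29 synthetase genes with enough counts to test, 0 rose and 0 fell by the edgeR quasi-likelihood test with Benjamini-Hochberg adjustment at 0.05. Of all 5639 genes tested, 1.65% passed, 0.833% upward and 0.816% downward. At an unadjusted p under 0.05 there were 4 of the 29, which is 13.8%, close to the 13.2% of all tested genes. Split by class, with few genes in each, there was 1 of 18 cytosolic genes (5.56%) and 3 of 11 mitochondrial genes (27.3%). These 4 were PheRS-m, TrpRS-m, MetRS-m and ThrRS, all 4 with higher levels in the libraries labelled Pex5-depleted, where 6.54% of all tested genes had such a p in that direction. Levels within the family ranged from 338 CPM for LysRS to 1 UMI in all 6 libraries for ValRS-m.

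LysRS, which charges lysine, was the most abundant synthetase transcript and held 25.6% to 34.2% of all synthetase UMIs in each library. It was counted at 298, 390 and 231 CPM in control replicates 1, 2 and 3 and at 406, 353 and 353 CPM in the replicates labelled Pex5-depleted. The highest control lay above 2 of the libraries labelled Pex5-depleted, so the groups overlapped. The log2 fold change was 0.27 (95% interval -0.14 to 0.68, SE 0.19, edgeR quasi-likelihood adjusted p = 0.609).

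ThrRS (chromosome 2L, 12103751 to 12107170, plus strand), the enzyme for threonine, came next. Its levels were 155, 116 and 89.9 CPM in the controls against 157, 189 and 175 CPM in the other group. All 3 libraries labelled Pex5-depleted lay above all 3 controls, although control replicate 1 came close to the lowest of them. The log2 fold change was 0.53 (95% interval 0.07 to 0.99, SE 0.21), with an unadjusted p of 0.0261 and an adjusted p of 0.297 by edgeR, so the gene did not pass.

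SerRS, the enzyme for serine, stood at 138, 113 and 85.0 CPM in the controls against 127, 120 and 121 CPM in the other group, with a log2 fold change of 0.13 (SE 0.21). TyrRS, the enzyme for tyrosine, whose human counterpart is mutated in a form of inherited peripheral neuropathy, stood at 129, 77.8 and 80.2 CPM against 126, 136 and 126 CPM. Control replicate 1 lay within the TyrRS range of the other group while the remaining 2 controls were lower. Its log2 fold change was 0.44 (95% interval -0.04 to 0.91, SE 0.22, edgeR adjusted p = 0.432).

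AspRS, HisRS and AsnRS followed with means over the 6 libraries of 81.9, 59.1 and 56.8 CPM. These were the steadiest members, with a highest library at most 1.45 times the lowest. AsnRS stood at 53.5, 51.8 and 49.9 CPM in the controls, a spread of 0.455 times the SD that counting alone would give. The 6 most abundant genes, LysRS, ThrRS, SerRS, TyrRS, AspRS and HisRS, together held 67.7% to 76.9% of the synthetase UMIs in each library.

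**Figure D1:**
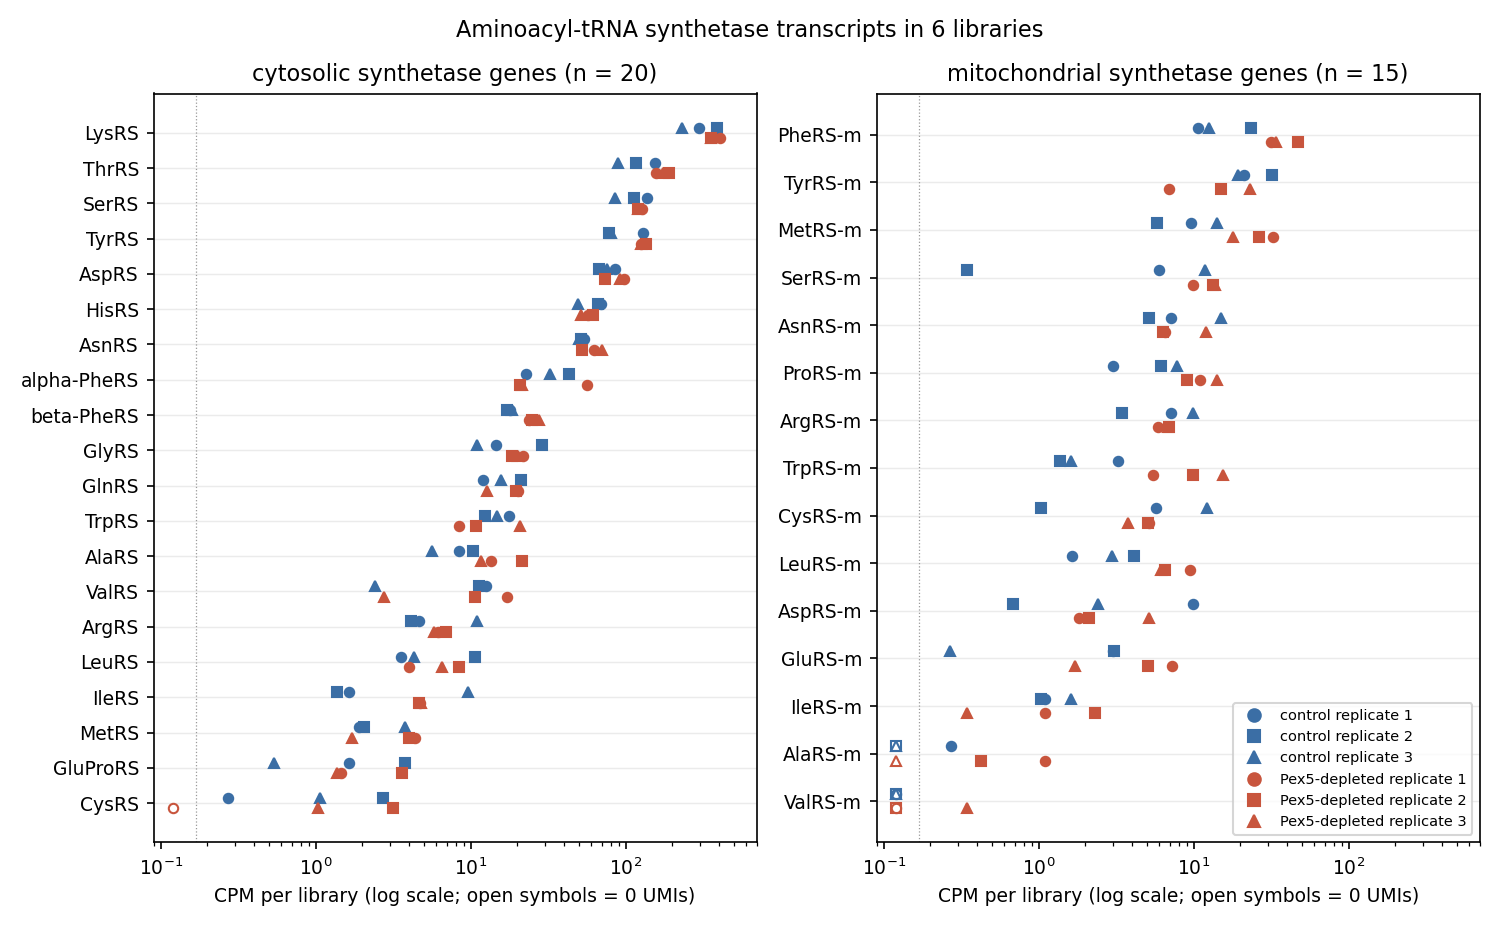
Level of each of the 35 synthetase genes in each library, in CPM on a log axis, cytosolic genes at left and mitochondrial genes at right, ordered by mean level, with open symbols at the left edge for 0 UMIs. LysRS stands highest at 231 to 406 CPM, and the highest mitochondrial value is 47.1 CPM for PheRS-m.

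The remaining cytosolic genes went down to a few UMIs per library. The enzyme for phenylalanine is built from alpha and beta subunits in equal number, encoded by alpha-PheRS and beta-PheRS. The alpha-PheRS transcript stood at 22.6, 42.8 and 32.5 CPM in the controls against 56.5, 20.9 and 21.6 CPM in the other group. It had both its highest and its lowest library within the group labelled Pex5-depleted, whose SD was 6.66 times that of counting alone, and a log2 fold change of 0.01 (SE 0.39).

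The beta-PheRS transcript was much steadier, at 18.0, 17.1 and 18.5 CPM in the controls against 23.7, 24.9 and 27.8 CPM in the other group. Its groups did not overlap, but the log2 fold change of 0.51 (SE 0.32) did not pass (edgeR adjusted p = 0.553). The ratio of alpha-PheRS to beta-PheRS was 1.26, 2.50 and 1.75 in the controls against 2.38, 0.839 and 0.778 in the replicates labelled Pex5-depleted 1, 2 and 3, so the more abundant transcript of the pair differed between libraries of that group.

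GlyRS, GlnRS and TrpRS, the enzymes for glycine, glutamine and tryptophan, had means of 19.1, 16.9 and 14.2 CPM. AlaRS, the enzyme for alanine, stood at 8.45, 10.3 and 5.63 CPM in the controls against 13.5, 21.5 and 11.7 CPM in the other group. These AlaRS groups did not overlap, and its log2 fold change of 0.95 (SE 0.47), the highest among the tested cytosolic genes, did not pass (edgeR adjusted p = 0.407). ValRS, for valine, reached only 2.41 CPM in control replicate 3 and 2.75 CPM in the third replicate labelled Pex5-depleted, against 10.6 to 17.1 CPM in the other 4 libraries.

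ArgRS, LeuRS, IleRS and MetRS, for arginine, leucine, isoleucine and methionine, had means of 6.46, 6.24, 4.48 and 2.97 CPM. In IleRS 1 library decided the control level, with 6, 4 and 36 UMIs in the controls against 13, 22 and 14 in the other group. Its log2 fold change was 0.15 (SE 0.80) with all libraries and went from -0.28 to 1.62 in the fits without 1 library, the highest of them without control replicate 3.

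GluProRS and CysRS were too sparse to test. GluProRS encodes a fused enzyme that charges both glutamate and proline and has the longest annotated transcript of the family, at 5405 bases. It was counted 6, 11 and 2 times in the controls against 4, 17 and 4 times in the other group. CysRS, for cysteine, was the least abundant cytosolic gene, with 1, 8 and 4 UMIs in the controls against 0, 15 and 3 in the other group.

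The synthetases that form the mammalian complex did not share a common transcript level. Their 8 fly counterparts, a set chosen after the values were seen, ranged from 2.06 CPM for GluProRS to 338 CPM for LysRS, with AspRS at 81.9 CPM, GlnRS at 16.9 CPM and ArgRS, LeuRS, IleRS and MetRS under 7 CPM. Their median of 6.35 CPM compared with 27.3 CPM for the other 12 cytosolic genes. Each molecule was tagged once near its 3′ end, so a level in CPM counts molecules and was not divided by length. When divided by the longest annotated transcript, LysRS was still first at 152 CPM per kilobase, and the order over the 35 genes was nearly the same (Spearman rho 0.98, across genes). Longer genes of the family had lower levels (rho -0.44 across the 35 genes), as did longer genes among the 5590 tested genes with a known length (rho -0.36). Genes are not independent replicates, and priming within transcripts was not examined.

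The mitochondrial enzymes were mostly scarcer, and several of them were higher in the libraries labelled Pex5-depleted without passing the test. The 15 genes together made up 7.70% to 12.3% of the synthetase UMIs, and 11 had enough counts to test. PheRS-m (chromosome 2R, 13968308 to 13969902, plus strand), a single-chain enzyme that charges phenylalanine, was the most abundant of them. It stood at 10.6, 23.3 and 12.6 CPM in control replicates 1, 2 and 3 and at 31.4, 47.1 and 34.0 CPM in the replicates labelled Pex5-depleted. All 3 of the latter lay above the highest control. The means were 15.5 ± 6.82 and 37.5 ± 8.42 CPM (SD, n = 3 each), or 1.28 as a log2 fold change (95% interval 0.52 to 2.05, SE 0.36). With an unadjusted p of 0.00281 and an adjusted p of 0.106 by edgeR quasi-likelihood, PheRS-m did not pass. It did pass with DESeq2 (adjusted p = 0.0236), which called 5.84% of the 3561 genes it adjusted and 2.47% as higher. It also passed without control replicate 2 (edgeR adjusted p = 0.0430), where 1.32% of 6083 genes were called and 0.773% as higher. Over all alternatives its adjusted p lay between 0.0236 and 0.369.

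MetRS-m (chromosome 3R, 14249043 to 14259991, minus strand) charges methionine, including that used to start mitochondrial proteins, and its loss in flies is known to impair respiration. It stood at 9.55, 5.83 and 14.2 CPM in the controls against 32.5, 26.2 and 17.9 CPM in the other group, again with no overlap. The log2 fold change was 1.36 (95% interval 0.46 to 2.26, SE 0.42), with an unadjusted p of 0.00575 and an adjusted p of 0.15 by edgeR. Over the alternatives its adjusted p lay between 0.0530 and 0.361.

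TrpRS-m (chromosome 3L, 17849727 to 17852453, plus strand), for tryptophan, had the greatest fold change of the tested members, on few molecules. It was counted 12, 4 and 6 times in the controls against 15, 47 and 45 times in the other group, or 3.27, 1.37 and 1.61 CPM against 5.47, 9.92 and 15.4 CPM. The groups did not overlap, but the lowest library labelled Pex5-depleted had only 15 UMIs. The log2 fold change was 2.27 (95% interval 0.82 to 3.73, SE 0.68), with an unadjusted p of 0.00461 and an adjusted p of 0.136 by edgeR. Over the alternatives that gave a value, its adjusted p lay between 0.128 and 0.426. DESeq2 gave TrpRS-m no adjusted p, so that range leaves DESeq2 out.

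ProRS-m and LeuRS-m, for proline and leucine, also had groups that did not overlap. ProRS-m stood at 3.00, 6.17 and 7.78 CPM against 10.9, 9.08 and 14.1 CPM, a log2 fold change of 1.00 (SE 0.55). LeuRS-m stood at 1.64, 4.11 and 2.95 CPM against 9.48, 6.55 and 6.18 CPM, a log2 fold change of 1.35 (SE 0.68). Neither passed, with edgeR adjusted p of 0.469 and 0.417. GluRS-m and SerRS-m, for glutamate and serine, had log2 fold changes of 1.15 (SE 0.90) and 1.00 (SE 0.72), with groups that overlapped. SerRS-m was counted 22, 1 and 44 times in the controls, a spread of 4.14 times that of counting alone, and 27, 63 and 40 times in the other group.

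TyrRS-m, for tyrosine, had the lowest fold change of the tested members. The controls had 21, 32.2 and 19.3 CPM and the other libraries 6.93, 15.0 and 23.0 CPM, so the groups overlapped. Its log2 fold change was -0.68 (95% interval -1.60 to 0.23, SE 0.43, edgeR adjusted p = 0.552). Its annotated 3′ end lies within CG3594 on the opposite strand, which went from 25.6 ± 5.49 to 14.1 ± 3.79 CPM (SD, n = 3 each). Use of strand in the counting is not given in the sources used here, so reads of the pair cannot be told apart. In all, 16 members overlap a gene on the opposite strand. For at least 9 of them the 3′ end lies inside such a gene that was matched by symbol to the counts. Among these 9, CysRS-m lies under CG13016 (5.51 CPM, log2 fold change 1.88), AsnRS-m under NiPp1 (13.3 CPM), ProRS-m under CG1246 (2.13 CPM) and GlnRS under CG11858 (31.9 CPM), so their levels and fold changes are uncertain. For SerRS-m, GluRS-m, CysRS and GluProRS the overlapping gene had no symbol match in the counts, so its position was not checked. The same held for asRNA:CR45141 opposite AspRS. On the same strand, the 3′ end of HisRS lies inside Bx (1.45 CPM), and AspRS overlaps asRNA:CR43468, also without a match. PheRS-m, TrpRS-m and ThrRS overlap no annotated gene. MetRS-m overlaps CG43179 (1.55 CPM) on the opposite strand, with its 3′ end outside that gene. CysRS-m, AsnRS-m and ArgRS-m stood at log2 fold changes of -0.44, -0.14 and -0.06, with SEs of 0.76, 0.57 and 0.59, and each turned positive without control replicate 3.

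The 4 mitochondrial genes that could not be tested were AspRS-m, IleRS-m, AlaRS-m and ValRS-m. AspRS-m had 36, 2 and 9 UMIs in the controls against 5, 10 and 15 in the other group. IleRS-m had 4, 3 and 6 against 3, 11 and 1 UMIs. AlaRS-m had 1, 0 and 0 against 3, 2 and 0, and the sole ValRS-m UMI was in the third replicate labelled Pex5-depleted. In each, too few libraries reached the minimum of the expression filter. AspRS-m had 77 UMIs in total, more than the 70 of the tested GluRS-m. Its mean was 4.31 CPM in the controls against 3.03 CPM in the other group. Among the 14 mitochondrial genes with a control UMI, control replicate 2 was the lowest for 9 and control replicate 3 the highest for 7. The 9 include AlaRS-m, for which control replicates 2 and 3 tied at 0 UMIs.

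**Figure D2:**
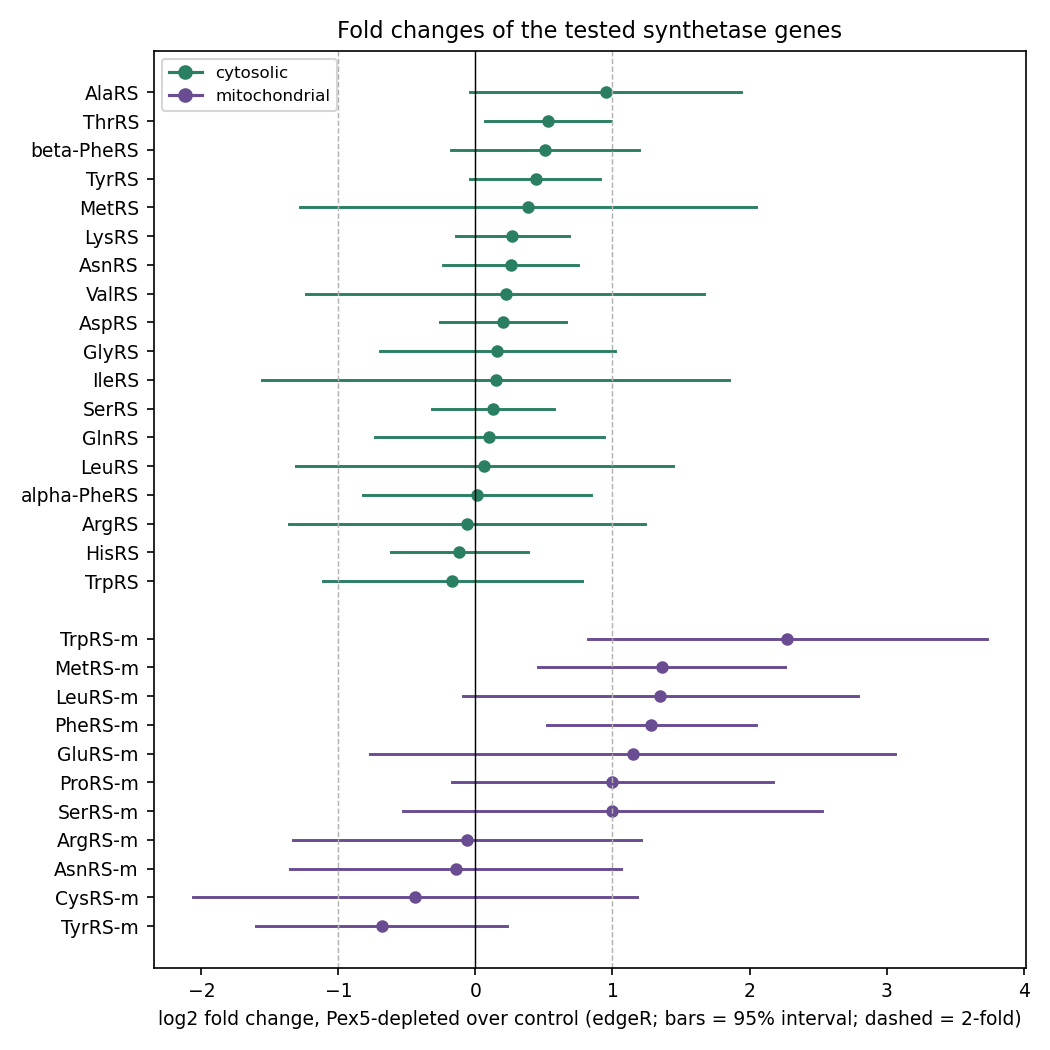
Log2 fold change (Pex5-depleted over control, edgeR) of the 29 tested synthetase genes, with 95% intervals as bars and dashed lines at 2-fold in either direction. The intervals of TrpRS-m, MetRS-m, PheRS-m and ThrRS lie above 0, and 0 of the 29 genes passed after adjustment.

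For 9 of the 18 tested cytosolic genes the whole 95% interval lay within 2-fold, a log2 value of 1, in either direction, and the 9 included LysRS, ThrRS, SerRS, TyrRS, AspRS, HisRS and AsnRS. For 0 of the 11 tested mitochondrial genes did it do so. Standard errors were 0.19 to 0.80 for the cytosolic and 0.36 to 0.90 for the mitochondrial genes. The median log2 fold change was 0.18 for the tested cytosolic genes, 1.00 for the tested mitochondrial genes and 0.03 for all tested genes. Positive fold changes were found in 15 of 18 cytosolic, 7 of 11 mitochondrial and 52.7% of all tested genes. Groups lay apart with the libraries labelled Pex5-depleted higher for 3 of the 18 cytosolic genes and 5 of the 11 mitochondrial genes, against 9.74% of all tested genes. They lay apart in the other direction for 0 members against 9.42%, and in either direction for 19.2% of all tested genes. The filter can admit a sparse gene through the group in which it is higher, so these counts and medians describe the tested genes only.

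Summed over all members, whether tested or not, the mitochondrial synthetase level was 89.2, 87.7 and 112 CPM in the controls against 135, 155 and 154 CPM in the other group. The means were 96.2 ± 13.4 and 148 ± 11.3 CPM (SD, n = 3 each). Most of this difference came from PheRS-m, MetRS-m and TrpRS-m, the genes already named for their small p. Their means were 15.5, 9.86 and 2.08 CPM in the controls against 37.5, 25.5 and 10.3 CPM. The mitochondrial sum therefore adds little beyond these genes and does not describe the class as a whole. The cytosolic sum was 1048, 1051 and 793 CPM against 1215, 1141 and 1128 CPM, with means of 964 ± 148 and 1162 ± 46.7 CPM. The groups lay apart for both sums. Scaled by library size alone, the mitochondrial sums were still apart, at 85.0 to 117 against 135 to 154 CPM, while the cytosolic sums overlapped, at 833 to 1085 against 989 to 1294. The separation of the cytosolic sum thus held only with the composition factors.

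**Figure D3:**
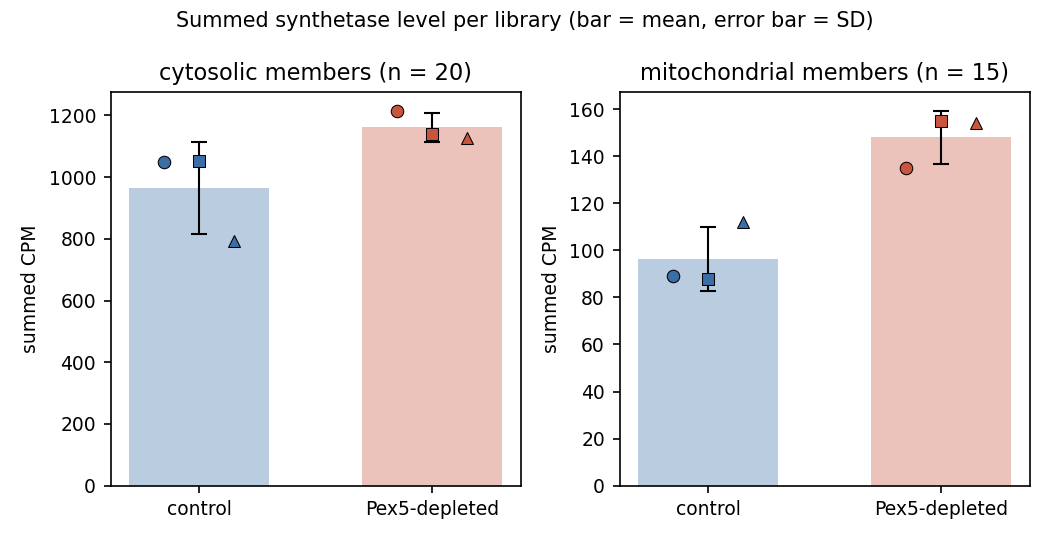
Summed CPM of the 20 cytosolic and of the 15 mitochondrial synthetase genes in each library, with bars for group means and error bars for SD (n = 3 each). The mitochondrial sums are 87.7 to 112 CPM in the controls against 135 to 155 CPM in the libraries labelled Pex5-depleted.

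Several other measures differed between the same groups, and their part in these values was not tested. The 13 protein-coding transcripts of the mitochondrial genome, all tested, gave 0 calls and a median log2 fold change of 0.36, and their summed level was 11462 to 20274 CPM in the controls against 17122 to 22470 CPM in the other group. Of 12 heat shock and dissociation stress genes 11 were tested and 5 rose, where 0.833% of all tested genes did, with sums of 16961 to 33127 against 36268 to 45817 CPM. Of the 6 fits without 1 library, Hsp83 passed in 6, Hsc70-4 and Hsp70Ab in 4, Hsp70Aa in 3 and Hsp70Bc in 1, and Hsp70Bc missed with DESeq2 (adjusted p = 0.102). The Hsp70 genes are near-identical copies, and reads at several loci were dropped, so the count of each copy may be incomplete. Of 15 enteroendocrine markers 12 were tested and 3 fell, where 0.816% of all tested genes did, with sums of 1094 to 3166 against 584 to 1039 CPM. Orcokinin took 2185, 1431 and 236 CPM of those sums in the controls and 180, 290 and 345 CPM in the other group. It passed in 1 of the 6 fits without 1 library, as did 7B2, and Phm in 2. Orcokinin missed with DESeq2, limma-voom and the replicate block (adjusted p of 0.0936, 0.117 and 0.155), and Phm with the block (0.0519). Of 14 enterocyte markers 11 were tested and 2 rose, where 0.833% of all tested genes did, with sums of 367 to 784 against 809 to 942 CPM. Jon25Biii took 8.73, 41.5 and 8.58 CPM of those sums in the controls and 96.7, 142 and 343 CPM in the other group. It passed in 4 and Amy-p in 2 of the 6 fits without 1 library. Mean levels of mex1 (138 against 123 CPM) and Jon25Bi (83.8 against 39.6 CPM) went the other way without passing. No listed marker in the table was at 0 in all 6 libraries, but nub of enterocytes, Mhc of muscle and Hml of haemocytes averaged under 1 CPM in both groups. Visceral muscle markers (1 of 10 tested) summed to 62.4 to 73.6 against 43.0 to 61.5 CPM, and haemocyte and fat body markers (1 of 9 tested) to 18.2 to 21.9 against 17.9 to 40.8 CPM. The yolk protein gene Yp1 of that list had 0 UMIs in each control and 7, 65 and 1 in the other group. Trachea and neuron markers (2 of 5 tested) summed to 5.14 to 13.7 against 10.3 to 17.5 CPM, with 0 past the test in these 3 lists.

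The cytosolic and mitochondrial enzymes for the same amino acid showed no fixed ratio. Of 20 amino acids, 15 had a gene for each compartment, with GluProRS standing for both glutamate and proline and alpha-PheRS for phenylalanine. The cytosolic gene had the higher mean for 10 of the 15 and the mitochondrial gene for 5. With beta-PheRS (21.7 CPM) in place of alpha-PheRS (32.8 CPM) against PheRS-m (26.5 CPM), the tally was 9 and 6. The order was the same in all 6 libraries for 8 of the former and 2 of the latter. SerRS exceeded SerRS-m by 12.8 times in mean level, TyrRS exceeded TyrRS-m by 5.74 times, AspRS exceeded AspRS-m by 22.3 times and AsnRS exceeded AsnRS-m by 6.53 times.

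For methionine the order was reversed in every library: MetRS averaged 2.97 CPM and MetRS-m 17.7 CPM. ProRS-m, at 8.51 CPM, likewise exceeded GluProRS, at 2.06 CPM, in every library. CysRS-m, subject to its overlap with CG13016, exceeded CysRS in 5 of 6 libraries (means of 5.46 and 1.38 CPM). ArgRS and ArgRS-m were level, at 6.46 and 6.69 CPM, and their order changed between libraries. The 3′ end of ArgRS-m lies within mRpS9 on the opposite strand, a gene at 48.3 CPM, so its level is uncertain.

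The 5 amino acids without a separate -m gene were glutamine, glycine, histidine, lysine and threonine. In human cells, single genes for the glycine and lysine enzymes supply both compartments. The annotation lists 3 transcripts each for GlyRS and LysRS and 4 each for HisRS and ThrRS, which the counts per gene do not separate. For glutamine, mitochondria of animals instead charge the transfer RNA with glutamate through the mitochondrial glutamate enzyme, and an amidotransferase of subunits GatA, GatB and GatC converts it. GatA stood at 11.4 ± 5.97 CPM in the controls against 17.0 ± 3.65 CPM in the other group (SD, n = 3 each), and GatB and GatC each averaged under 1 CPM in both groups.

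**Figure D4:**
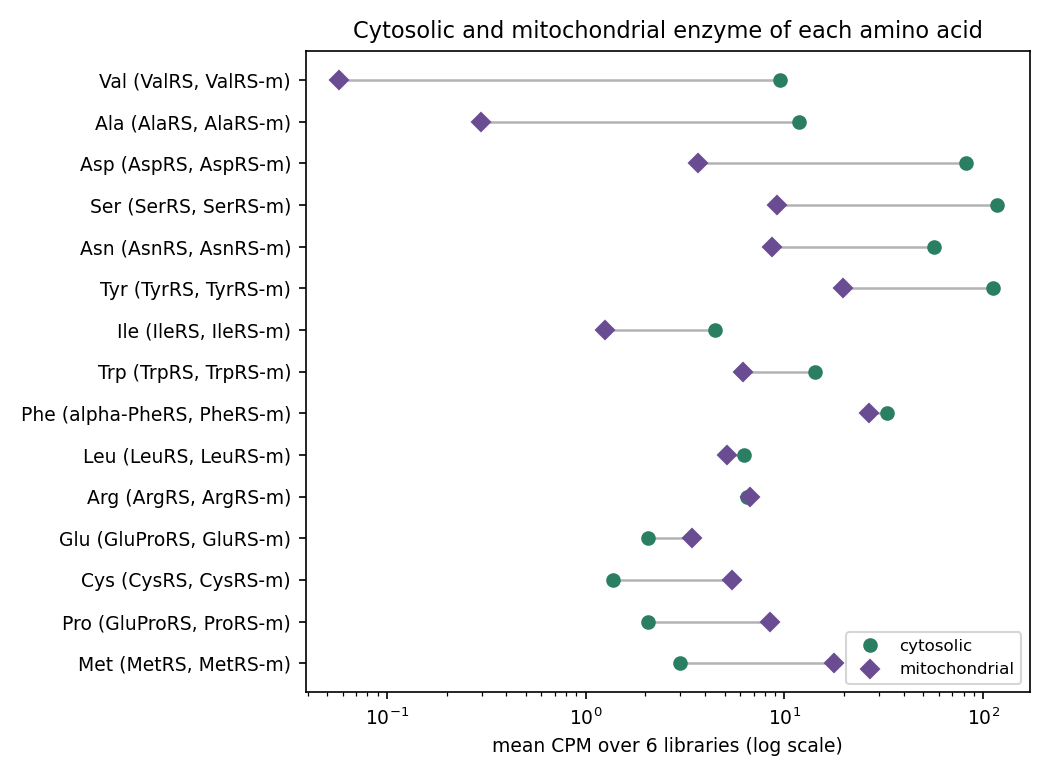
Mean CPM over the 6 libraries (log axis) of the cytosolic and the mitochondrial enzyme for each of the 15 amino acids with both, ordered by their ratio. ValRS and ValRS-m lie farthest apart, at 9.45 and 0.0572 CPM, and for methionine, proline, cysteine, glutamate and arginine the mitochondrial gene is higher.

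The genes that work beside the synthetases were examined from 6 lists, and 1 gene in them passed, where 1.65% of all tested genes did. With so few genes tested per list, a count of 0 or 1 cannot be told apart from that share. Of the 8 scaffold and related genes 5 were tested, 0 passed, and the median log2 fold change was 0.42 against 0.03 for all tested genes. The scaffold genes were abundant: AIMP3 stood at 176 ± 13.4 CPM in the controls against 208 ± 41.9 CPM in the other group, AIMP2 at 107 ± 25.5 and 113 ± 8.19 CPM, and AIMP1 at 75.3 ± 9.61 and 101 ± 14.4 CPM (SD, n = 3 each). AIMP1 and AIMP3 had the smallest p of that list, with log2 fold changes of 0.42 (SE 0.21) and 0.24 (SE 0.19). Slimp, a relative of SerRS-m that has lost the charging activity, was too sparse to test at 1.93 and 1.98 CPM.

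Charged transfer RNA is carried to the ribosome by elongation factor eEF1A, which is recharged with GTP by an exchange complex of the beta, gamma and delta subunits. Of 8 delivery factors 7 were tested, 0 rose and 1 fell, where 0.816% of all tested genes fell. The delta subunit gene eEF1delta was counted at 172, 173 and 190 CPM in the controls against 97.7, 69.3 and 60.1 CPM in the other group. Every control lay well above every library labelled Pex5-depleted. The log2 fold change was -1.24 (95% interval -1.69 to -0.78, SE 0.21), with an edgeR quasi-likelihood adjusted p of 0.00951. It passed in 3 of the 6 fits without 1 library, and was lost without control replicate 1 (adjusted p = 0.0507) and without Pex5-depleted replicate 2 (0.0665) or 3 (0.0555).

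The beta subunit gene eEF1beta went from 3013 ± 181 to 2309 ± 263 CPM (SD, n = 3 each), -0.38 on the log2 scale (SE 0.14), and did not pass (edgeR adjusted p = 0.224), except when scaled by library size alone (0.0475). The gamma subunit gene eEF1gamma was at 1393 ± 65.1 against 1358 ± 70.2 CPM and the carrier gene eEF1alpha1 at 5555 ± 397 against 5198 ± 106 CPM (SD, n = 3 each). On the log2 scale the change was -0.04 (SE 0.14) for eEF1gamma and -0.10 (SE 0.13) for eEF1alpha1. Of the factors that do this in mitochondria, the carrier genes mEFTu1 and mEFTu2 had log2 fold changes of 0.33 (SE 0.17) and -0.30 (SE 0.24), and the exchange factor gene mEFTs 0.02 (SE 0.21).

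Of 9 genes of the GCN2 and ATF4 axis 7 were tested and 0 passed, with a median log2 fold change of 0.11. The ATF4 gene crc stood at 381 ± 25.2 against 322 ± 53.4 CPM (SD, n = 3 each), or -0.25 on the log2 scale (SE 0.17), and REPTOR-BP, a partner in starvation responses, had 0.26 (SE 0.21). Of 12 amino acid synthesis genes known as ATF4 targets 10 were tested and 0 passed, with a median of -0.21. The log2 fold change was 0.59 (SE 0.21) for Got1, an aspartate aminotransferase gene, and -0.64 (SE 0.26) for Nmdmc, of mitochondrial one-carbon metabolism, with edgeR adjusted p of 0.206 and 0.289.

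Of 12 amino acid transporter genes 4 were tested and 0 passed, with a median log2 fold change of 0.18. The leucine transporter gene mnd was counted 28, 24 and 33 times in the controls against 5, 6 and 5 times in the other group. Its groups lay apart, at 7.64 to 8.85 CPM in the controls against 1.27 to 1.82 CPM in the other group, but its log2 fold change of -2.35 (SE 0.69) did not pass (edgeR adjusted p = 0.124). For path, a lysosomal amino acid transporter gene, the log2 fold change was 0.37 (SE 0.24). Of 12 transfer RNA maturation and modification genes 11 were tested and 0 passed, with a median of 0.20. Tgt, which inserts queuine into transfer RNA, had 0.42 (SE 0.26), and CG2100 had 0.61 (SE 0.43).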

How the data were processed

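Poly-A transcripts of sorted intestinal progenitors were made into 3′ libraries with a QIAseq UPX kit, per the labels. The deposited table holds UMI counts per gene and well index. Tools listed in the submitters' processing notes, with neither role nor version, are DESeq2, StringTie and HISAT2, and the build there is dm6. Per the file headers, reads at several loci were dropped (0.717% of the run's 481949149 reads, among other read and UMI totals deposited for the whole run), at 11.2 reads per UMI. The table's 29 other well columns match no sample here and were not used, and 6 spike-in rows holding 7 UMIs (3.37e-05%) were left out. A further table the authors deposited holds a signed fold score, p-values and false discovery rates (FDR). Its sides are not named per the file headers, so it entered no test.

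UMI counts were tested with the quasi-likelihood method of edgeR 4.0.16 in R 4.3.3, using TMM factors, its expression filter (minimum count 10) and group as the sole term. P-values of the 5639 genes tested were adjusted by Benjamini-Hochberg, with a threshold of 0.05. A positive fold change means higher under the Pex5-depleted label, and each SE is the log2 fold change over the root of its F statistic. CPM values use TMM-scaled totals of the tested genes. Spread beyond counting is the SD divided by that expected from a Poisson count. Alternatives were RLE factors, library size alone, 2 other filters, DESeq2 1.42.0, limma-voom (limma 3.58.1), a replicate block and leaving out each library. The fits were checked on simulated data.

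The members and lists were chosen with earlier results of these data known. The rule named in full each member with p under 0.05, the most and least abundant of each class and both PheRS subunits, and from each list the genes past the test or else those with the 2 smallest p. The other members were given more briefly. Each replicate is a pool of 200 guts that the labels call biological, and p-values measure the spread between these pools. No sequence is shown.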

Additional observations from a re-analysis of the deposited data

How the results depend on the processing

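Of the 379 recomputed fold changes of the 29 synthetase genes and eEF1delta, 344 kept their direction and their side of the threshold under 13 alternatives. The count of 0 synthetase genes was 1 with DESeq2, and 0 to 1 in the fits without 1 library (PheRS-m in both cases). The DESeq2 count does not cover all 29 genes. DESeq2 gave no adjusted p for ArgRS, ArgRS-m, AsnRS-m, CysRS-m, GluRS-m, IleRS, LeuRS, LeuRS-m, MetRS, ProRS-m and TrpRS-m. Their DESeq2 values are not among the 379. The 93 calls over all genes became 197 without a count filter, 208 with DESeq2, 58 with the replicate block and 17 to 80 in the fits without 1 library. The 1 call in the related lists became 2 by library size alone and 0 to 1 in the fits without 1 library. The median log2 fold change of the cytosolic genes was 0.13 by library size alone, 0.13 without a filter, 0.29 with limma-voom and 0.13 to 0.26 in the fits without 1 library. That of the mitochondrial genes was 1.37 with limma-voom, 1.32 with the replicate block and 0.89 to 1.15 in the fits without 1 library. Numbers 1 to 3 did not pair the libraries (correlations of deviations of -0.014, -0.052 and 0.012 for same-numbered pairs).

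The sign turned for 12 genes, none of them past the test, and the cause was not tested. With limma-voom and the replicate block, ArgRS was 0.06 and 0.08, ArgRS-m 0.02 and 0.05, and alpha-PheRS -0.15 and -0.11. The alpha-PheRS value was -0.0043 with RLE factors, -0.0021 by library size alone, -0.04 without a filter and -0.0024 with DESeq2. In the fits without 1 library the values ran from -0.32 to 0.53 for ArgRS, -0.39 to 0.30 for ArgRS-m, -0.52 to 0.42 for AsnRS-m, -0.95 to 0.43 for CysRS-m, -0.09 to 0.31 for GlnRS, -0.10 to 0.64 for GlyRS, -0.28 to 1.62 for IleRS, -0.22 to 0.67 for LeuRS, -0.04 to 0.30 for SerRS, -0.66 to 0.07 for TrpRS, -0.36 to 0.63 for ValRS and -0.62 to 0.26 for alpha-PheRS. Of the 35 members 6 did not pass the expression filter and were not tested.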

Other observations

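The authors' deposited table of fold changes, whose sides are not named in it, lists all 35 synthetase genes, 28 of them with a false discovery rate under 0.05. Of the 29 genes tested here, 14 have the sign of the count-based fold change in the authors' deposited table as written, 11 of these with a false discovery rate under 0.05, and 15 have the other sign, 13 of these under 0.05. With the sides of the authors' deposited table swapped, the 15 would match and the 14 would not. The median size of the log2 fold is 1.29 in the authors' deposited table and 0.27 from the UMI counts. On the linear scale, PheRS-m has a signed fold of -5.81 in the authors' deposited table and a fold of 2.44 from the counts. MetRS-m has 2.44 in the authors' deposited table and 2.56 from the counts. TyrRS has -5.68 in the authors' deposited table and 1.35 from the counts, and LysRS has 3.48 and 1.21. The authors' deposited table also has folds of 1245.23 for ValRS-m and 4.14 for AlaRS-m, which had 1 and 6 UMIs in total over the 6 libraries. Whichever way the sides are read, signs differ between the 2 sources for some members. Which libraries the authors' deposited table compares is not given in the sources used here.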
